A study of Mus musculus with 6 samples.

Results

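The 9 genes described here encode the alternative forms of cytochrome oxidase subunits 4, 6a, 7a and 8, together with *Cox7a2l*, a relative of the subunit 7a genes. They were chosen by name, as the pairs of a widely expressed and a tissue-restricted isoform. All 9 were found among the 47069 genes of the deposited tables, and all 9 passed the filter on low counts that left 17667 genes for testing. The widely expressed forms are *Cox4i1*, *Cox6a1*, *Cox7a2* and *Cox8a*, and the restricted forms are *Cox4i2*, *Cox6a2*, *Cox7a1* and *Cox8b*.

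RNA from inguinal subcutaneous white adipose tissue (SC-WAT) of 2-week-old female C57BL/6 mice was sequenced after removal of ribosomal RNA, 1 library per mouse. The groups were 3 *Egr1* +/+ (wild-type) mice and 3 *Egr1* -/- (mutant) mice, bred from heterozygous parents. They came from 4 litters, with 1 mouse of each genotype being littermates. In the *Egr1* -/- mice, *Egr1*, which encodes a zinc finger transcription factor, was inactivated in all cells by a *LacZ* insertion and a frameshift, so that an effect arising in fat cannot be told apart from one arising elsewhere in the body. The comparison asks which transcripts differ in SC-WAT without EGR1. *Egr1* itself had 353, 241 and 711 counts in wild-type mice and 103, 84 and 57 in mutants.

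Cytochrome oxidase is the last enzyme of the mitochondrial respiratory chain and passes electrons from cytochrome c to oxygen while moving protons across the inner membrane. Its catalytic core is encoded by the mitochondrial genome, and the surrounding subunits are encoded in the nucleus. Some of these nuclear subunits exist in alternative forms that replace each other in the enzyme: the heart and muscle forms of subunits 6a, 7a and 8 are found in striated muscle and, in rodents, in brown fat, whereas *Cox4i2* is known from lung, vascular mural cells and oxygen-sensing cells. *Cox7a1* and *Cox8b* are for this reason used as markers of brown and beige adipocytes.

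The libraries held 29661984 to 42357981 counts on genes, of which 50.0% to 66.3% fell on the mitochondrial genome. The 10 adipocyte markers were all detected, with summed levels of 9009 to 9695 CPM (counts scaled to the normalised library size) in wild-type mice and 7398 to 8438 CPM in mutants. Their median log2 fold change was -0.14, with 4 lower and 1 higher at an unadjusted p under 0.05, and DESeq2 called the hormone genes *Lep* (-0.57) and *Retn* (-0.44), which like *Adipoq* (-0.41) were lower in every *Egr1* -/- mouse. Of all tested genes, 5.6% were lower and 5.06% higher at that p. DESeq2 called 2.07% of all tested genes, and 8.1% were lower in every *Egr1* -/- mouse. The 15 skeletal muscle markers, in contrast, varied widely within both genotypes, from 244 to 3979 CPM in wild-type mice and from 119 to 3172 CPM in mutants, with a median log2 fold change of -0.71. Mice of the same genotype thus differed in muscle RNA, and 3 of the restricted isoforms are also made in muscle, so the muscle values are given beside the isoforms below. In whole tissue, fewer cells of a type and less RNA per cell cannot be told apart.

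The genes lie on 7 chromosomes of the mouse genome (GRCm38, GENCODE M21). *Cox8b* (ENSMUSG00000025488.8) is at chr7:140898945-140900446 and *Cox8a* (ENSMUSG00000035885.4) at chr19:7215153-7217616, both on the minus strand. *Cox7a1* (ENSMUSG00000074218.2) is at chr7:30184144-30186078 on the plus strand, *Cox7a2* (ENSMUSG00000032330.6) at chr9:79755361-79759878 on the minus strand and *Cox7a2l* (ENSMUSG00000024248.13) at chr17:83501918-83517330 on the minus strand. *Cox6a2* (ENSMUSG00000030785.8) is at chr7:128205435-128206387 and *Cox6a1* (ENSMUSG00000041697.8) at chr5:115345642-115348981, both on the minus strand. *Cox4i2* (ENSMUSG00000009876.13) is at chr2:152754173-152765037 and *Cox4i1* (ENSMUSG00000031818.12) at chr8:120668222-120674207, both on the plus strand. The counts covered all exons of a gene, untranslated parts included.

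The 250 bases before the start of 4 of the genes are printed here, as those are the members with a higher level in *Egr1* -/- mice at an unadjusted p under 0.05. The sequences are those of RefSeq (GRCm38.p6), which gave a promoter entry for 6 of the 9 genes, and they read 5′ to 3′ on the strand of the gene. Capitals mark a match to one of the motifs searched, on either strand.
*Cox8b*, chr7:140900447-140900696, minus strand: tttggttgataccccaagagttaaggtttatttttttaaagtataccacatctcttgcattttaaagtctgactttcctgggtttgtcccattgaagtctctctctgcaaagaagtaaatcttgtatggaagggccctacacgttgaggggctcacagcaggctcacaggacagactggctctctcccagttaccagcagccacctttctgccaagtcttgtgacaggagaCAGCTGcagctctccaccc
*Cox8a*, chr19:7217617-7217866, minus strand: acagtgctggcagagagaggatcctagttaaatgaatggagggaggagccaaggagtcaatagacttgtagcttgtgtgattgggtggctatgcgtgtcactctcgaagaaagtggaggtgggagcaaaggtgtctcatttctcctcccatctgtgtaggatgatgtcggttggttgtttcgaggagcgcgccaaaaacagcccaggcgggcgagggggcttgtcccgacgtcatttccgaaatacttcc
*Cox7a1*, chr7:30183921-30184170, plus strand: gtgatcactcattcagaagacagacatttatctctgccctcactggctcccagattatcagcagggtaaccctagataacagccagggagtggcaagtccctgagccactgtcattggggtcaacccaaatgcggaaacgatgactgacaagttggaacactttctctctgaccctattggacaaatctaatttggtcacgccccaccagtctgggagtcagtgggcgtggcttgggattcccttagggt
*Cox6a1*, chr5:115348959-115349208, minus strand: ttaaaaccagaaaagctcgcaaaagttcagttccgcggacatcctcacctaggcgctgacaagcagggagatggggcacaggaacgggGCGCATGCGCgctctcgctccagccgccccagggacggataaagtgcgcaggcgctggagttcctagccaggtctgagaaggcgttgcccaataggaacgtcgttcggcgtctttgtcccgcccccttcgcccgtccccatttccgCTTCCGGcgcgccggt

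*Cox8b* carried the letters CAGCTG, an E-box bound by muscle regulatory factors, once at position -19 and again at position 17, counted from the start site. *Cox6a1* carried the NRF1 core GCATGCGC on both strands, in matches that overlap at positions -162 and -160, and the ETS motif CCGGAAG at position -16 on the other strand. *Cox8a* carried CCGGAAG on the other strand at position -5, where it runs across the start site and is left in lower case, and again at position 33. *Cox7a1*, *Cox7a2* and *Cox7a2l* held none of the motifs. The ERR motif TCAAGGTCA and the EGR motifs GCGGGGGCG and GCGTGGGCG occurred in none of the 6 windows. Among 32851 RefSeq promoter windows of the same 300 bases, CAGCTG occurred in 16.3%, CCGGAAG in 8.86%, GCATGCGC in 2.71%, GCGGGGGCG in 2.91%, GCGTGGGCG in 0.612% and TCAAGGTCA in 0.423%. These are matches of letters, and whether any factor binds there was not tested.

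The 4 widely expressed isoforms, *Cox7a1* and *Cox8b* had higher mean levels in *Egr1* -/- SC-WAT, and *Cox4i2* had a lower level in every *Egr1* -/- mouse. *Cox6a2* was high in the same mice of both genotypes as the summed muscle markers. *Cox8b* showed the largest difference of the higher genes, with a mean 1.69 times that of *Egr1* +/+ mice, and the mean of *Cox4i2* was 0.466 times that of *Egr1* +/+ mice. With edgeR's quasi-likelihood test and Benjamini-Hochberg adjustment over all tested genes, 0 of the 9 genes passed an adjusted p of 0.05, as against 0.017% of all tested genes, which is 3 genes. The inactivated *Egr1*, at a log2 fold change of -2.19, did not pass either. Its adjusted p was 0.0878 by edgeR and 3.87e-10 by DESeq2. At an unadjusted p under 0.05, 4 of the 9 genes were higher (*Cox6a1*, *Cox7a1*, *Cox8a* and *Cox8b*) and 1 was lower (*Cox4i2*), where 5.06% and 5.6% of all tested genes were higher and lower. Scaling to total counts alone, which moved the median of all tested genes to -0.15, put the median of the 9 genes at 0.19 and left 1 isoform gene higher (*Cox8b*) and 1 lower (*Cox4i2*), where 170 of all tested genes were higher and 1400 lower in place of 894 and 990. DESeq2 called 1 of the 9 genes, *Cox8b*, at an adjusted p under 0.05, and 2.07% of all tested genes. The log2 fold change was above 0 for 7 of the 9 genes and for 50.1% of all tested genes, with a median of 0.33 over the 9 genes and 0.0011 over all tested genes.

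**Figure D1:**
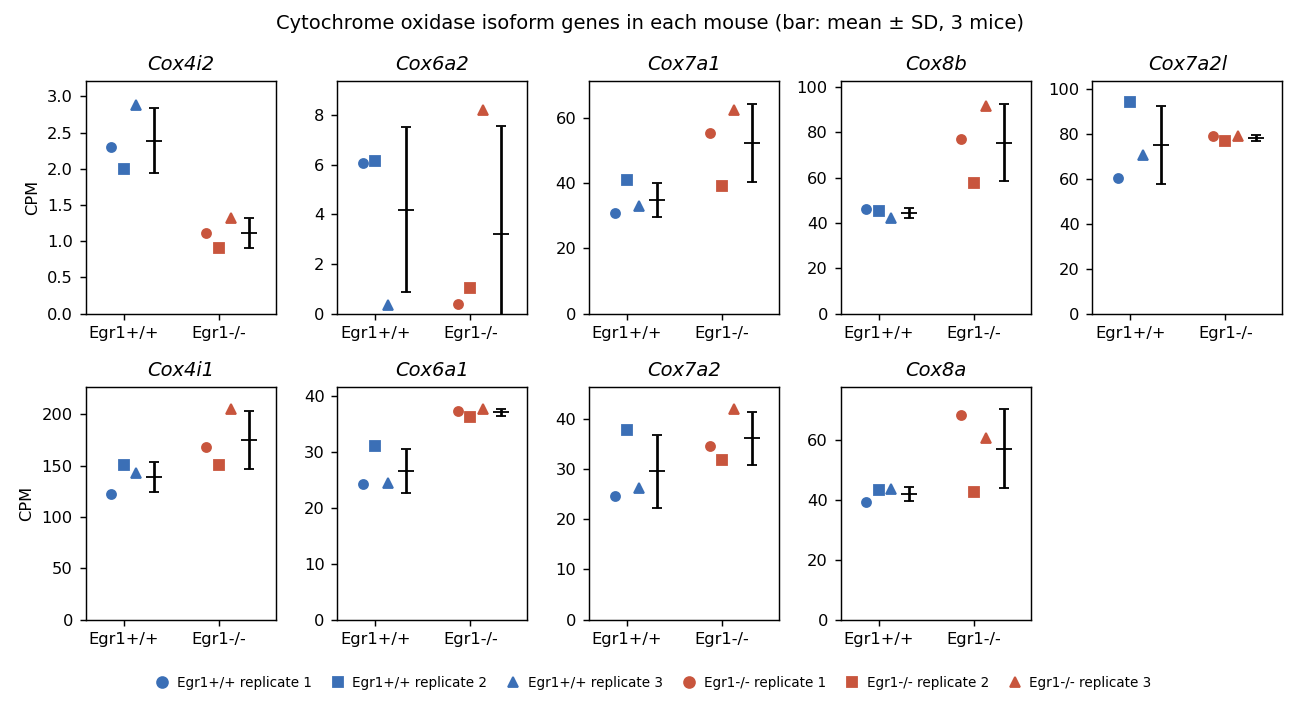
Level of each isoform gene in CPM (vertical axes, each starting at 0) in 3 *Egr1* +/+ and 3 *Egr1* -/- mice. Each point is 1 mouse and the bars give the mean ± SD, with the lower bar of *Cox6a2* in *Egr1* -/- mice running past 0. *Cox8b*, *Cox6a1* and, by the second decimal only, *Cox4i1* were higher in every *Egr1* -/- mouse. *Cox4i2* was lower in every one, and *Cox6a2* was spread over both genotypes. Of all tested genes, 8.15% were higher and 8.1% lower in every *Egr1* -/- mouse.

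*Cox8b* encodes the heart and muscle form of subunit 8, a small membrane-spanning subunit. It stood at 46.3, 45.3 and 42.1 CPM in wild-type mice and at 77.0, 57.7 and 91.6 CPM in mutants. All *Egr1* -/- mice were above all *Egr1* +/+ mice, a separation upward that 8.15% of all tested genes showed. The means were 44.6 ± 2.23 and 75.4 ± 17.0 CPM (SD, n = 3 each), so the *Egr1* -/- mice also varied more among themselves. The log2 fold change was 0.76 ± 0.16 (SE), with an adjusted p of 0.182 by edgeR's quasi-likelihood test and of 0.0025 by DESeq2. The authors had already listed *Cox8b* among the genes higher in these same mice, so the sequencing counts are no independent support for that. They also reported it as higher by quantitative PCR, in 2-week-old and in adult mice. *Cox8a*, the widely expressed partner, stood at 39.2, 43.1 and 43.5 CPM in wild-type mice and at 68.1, 42.4 and 60.6 CPM in mutants. Here *Egr1* -/- replicate 2 lay within the *Egr1* +/+ range and the genotypes overlapped. Its log2 fold change was 0.44 ± 0.17 (SE), with an adjusted p of 0.388 by edgeR.

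*Cox7a1* encodes the heart and muscle form of subunit 7a, a subunit near the interface at which complex IV meets its neighbours in the respiratory chain. It stood at 30.7, 40.8 and 33.1 CPM in wild-type mice and at 55.4, 39.0 and 62.3 CPM in mutants. *Egr1* -/- replicates 1 and 3 were above all *Egr1* +/+ mice, whereas replicate 2 was below *Egr1* +/+ replicate 2. The log2 fold change was 0.58 ± 0.18 (SE), with an adjusted p of 0.303 by edgeR and 0.0782 by DESeq2. *Cox7a2*, the widely expressed form, stood at 24.6, 37.8 and 26.1 CPM in wild-type mice and at 34.5, 31.8 and 41.8 CPM in mutants. The genotypes overlapped, and its log2 fold change was 0.29 ± 0.18 (SE), with an adjusted p of 0.625 by edgeR.

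*Cox7a2l*, also called SCAF1, takes part in joining complexes III and IV into respiratory supercomplexes. It stood at 60.4, 94.0 and 70.5 CPM in wild-type mice and at 79.0, 76.6 and 78.9 CPM in mutants. The *Egr1* -/- mice fell within the *Egr1* +/+ range, and the log2 fold change was 0.06 ± 0.16 (SE), with an adjusted p of 0.924 by edgeR. Its sign turned with total-count scaling and when *Egr1* +/+ replicate 1 was left out, at -0.08 and -0.09. *Gm6969*, a processed pseudogene on chromosome 12 that matches *Cox7a2l* at 98.0% of 342 bases, held 93 to 147 counts per mouse, as against 2075 to 3039 for *Cox7a2l* itself, so a part of the reads of this gene may be divided between them.

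*Cox6a1* encodes the widely expressed form of subunit 6a, which lies where the monomers of the enzyme meet and in its muscle form binds adenine nucleotides. It stood at 24.3, 31.1 and 24.4 CPM in wild-type mice and at 37.2, 36.3 and 37.6 CPM in mutants. The *Egr1* -/- mice were all higher, as was the case for 8.15% of all tested genes, and they lay close together at 37.1 ± 0.673 CPM (SD, n = 3). The log2 fold change was 0.48 ± 0.13 (SE), with an adjusted p of 0.229 by edgeR and 0.0616 by DESeq2.

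*Cox6a2*, the muscle form of subunit 6a, was the least even gene of the set. It had 208, 185 and 15 counts in wild-type mice and 13, 32 and 254 counts in mutants, or 6.05, 6.16 and 0.348 CPM against 0.390, 1.03 and 8.21 CPM. High and low mice occurred in both genotypes. The log2 fold change of -0.37 ± 1.07 (SE) had an adjusted p of 0.932 by edgeR, and leaving out 1 mouse at a time moved it between -2.54, without *Egr1* -/- replicate 3, and 0.16, without *Egr1* -/- replicate 1. The sum of the skeletal muscle markers moved with it. This sum was 1274, 3979 and 244 CPM in wild-type mice and 119, 418 and 3172 CPM in mutants. By the sum, the 3 mice with most *Cox6a2* and the 3 mice with most muscle RNA were the same mice. *Myh1*, *Myh2* and *Myh7* differed from the other markers of the list, with *Egr1* -/- replicate 2 above *Egr1* +/+ replicate 2. *Cox6a2* differed 23.6-fold between the highest and the lowest mouse and the summed muscle markers 33.3-fold, while *Cox6a2* per unit of the muscle markers differed 3.33-fold. The antisense neighbour *Itgad*, which shares exon sequence with *Cox6a2*, held 4 to 17 counts.

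*Cox4i1* encodes the widely expressed form of subunit 4, the largest of the nuclear subunits and the site at which ATP slows the enzyme. It stood at 122, 150 and 143 CPM in wild-type mice and at 168, 150 and 205 CPM in mutants. The lowest *Egr1* -/- mouse exceeded the highest *Egr1* +/+ mouse only at the second decimal, and the log2 fold change was 0.33 ± 0.15 (SE), with an adjusted p of 0.474 by edgeR. Its exons overlap those of the antisense gene *Emc8* over 154 bases, and *Emc8* held 335 to 494 counts as against 4201 to 6352 for *Cox4i1*.

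*Cox4i2*, the restricted form of subunit 4, was the only one of the 9 genes that was lower in every *Egr1* -/- mouse. It had 79, 60 and 124 counts in wild-type mice and 37, 28 and 41 counts in mutants. These counts gave 2.30, 2.00 and 2.88 CPM against 1.11, 0.904 and 1.33 CPM. The groups did not overlap, as was the case downward for 8.1% of all tested genes. The log2 fold change was -1.10 ± 0.28 (SE), with an adjusted p of 0.227 by edgeR and 0.0503 by DESeq2, which misses the threshold in both. Leaving out any 1 mouse gave between -1.25 and -0.95.

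Ratios between the isoforms of a subunit, taken within each mouse, do not depend on library size, and 5 of them were compared by an exact two-sided permutation test. With 3 mice against 3 this test cannot give a p below 0.1. The log2 ratio of *Cox4i2* to *Cox4i1* reads was -5.72, -6.22 and -5.63 in wild-type mice and -7.22, -7.35 and -7.26 in mutants. The *Egr1* -/- mice were nearly alike and well apart from the controls, with a difference of -1.42 ± 0.19 (SE) and the smallest p the design allows, 0.1 in the exact permutation test. Per kilobase of exon, *Cox4i2* made up 3.31 ± 0.669% of the subunit 4 transcripts in wild-type mice and 1.24 ± 0.0605% in mutants (SD, n = 3 each). These shares depend on the length used and are smaller with the longest coding transcript. *Cox4i2* and *Cox4i1* then stood at 3.26 and 181 CPM per kilobase in wild-type mice, and at 1.52 and 228 in mutants.

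The subunit 8 and subunit 7a pairs leaned towards the restricted form in *Egr1* -/- mice without separating the genotypes. The log2 ratio of *Cox8b* to *Cox8a* was 0.24, 0.07 and -0.05 in wild-type mice and 0.18, 0.44 and 0.60 in mutants. *Egr1* -/- replicate 1 lay below the highest *Egr1* +/+ mouse, and the difference was 0.32 ± 0.15 (SE, exact permutation p = 0.2). The log2 ratio of *Cox7a1* to *Cox7a2* was 0.32, 0.11 and 0.34 in wild-type mice and 0.68, 0.30 and 0.57 in mutants. The difference was 0.26 ± 0.14 (SE, exact permutation p = 0.3), again with an overlap. *Cox8b* and *Cox7a1* were the more abundant form of their pair in both genotypes: per kilobase *Cox8b* made up 64.6 ± 2.31% of subunit 8 transcripts in wild-type mice and 69.4 ± 3.15% in mutants. The corresponding shares of *Cox7a1* were 67.8 ± 1.95% and 71.6 ± 2.84% (SD, n = 3 each). With the longest coding transcript as length, *Cox8b* and *Cox8a* stood at 124 and 76.2 CPM per kilobase in wild-type mice, and at 210 and 104 in mutants. *Cox7a1* and *Cox7a2* then stood at 71.8 and 44.7 in wild-type mice, and at 108 and 54.7 in mutants.

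The log2 ratio of *Cox6a2* to *Cox6a1* ranged from -6.09 to -2.00 in wild-type mice and from -6.52 to -2.19 in mutants, and its difference of -1.14 ± 1.83 (SE) gave an exact permutation p of 0.6. In the mice with most muscle RNA, *Cox6a2* made up 17.0% to 20.5% of the subunit 6a transcripts per kilobase, and in the other mice 1.07% to 2.85%. The log2 ratio of *Cox7a2l* to *Cox7a2* was 1.30, 1.31 and 1.43 in wild-type mice and 1.19, 1.27 and 0.91 in mutants. These groups did not overlap, although by little, and the difference was -0.22 ± 0.12 (SE, exact permutation p = 0.1). Without *Egr1* -/- replicate 3 it was -0.12.

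**Figure D2:**
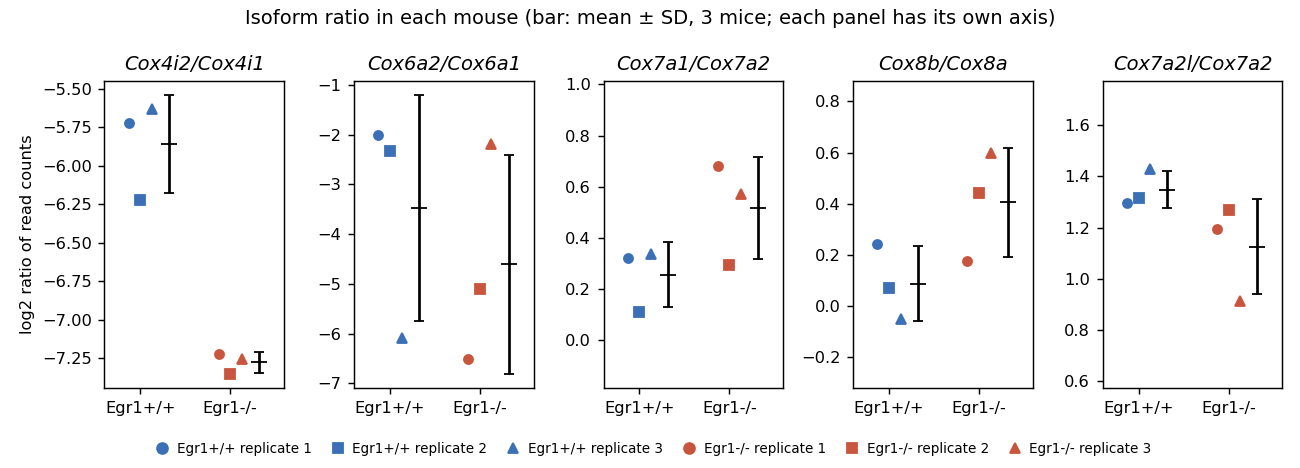
Log2 ratio of read counts between the isoforms of each subunit (vertical axes, each panel on its own scale) in each mouse, with bars for the mean ± SD of 3 mice. The *Cox4i2*/*Cox4i1* ratio lay between -6.22 and -5.63 in wild-type mice and between -7.35 and -7.22 in mutants, while the *Cox7a1*/*Cox7a2* and *Cox8b*/*Cox8a* ratios overlapped between genotypes.

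The order of the genes by level was read per kilobase of exon, since counts of genes of different length are not comparable otherwise. In *Egr1* +/+ mice *Cox8b* came first with 124 ± 6.19 CPM per kilobase, above *Cox4i1* with 89.4 ± 9.44 (SD, n = 3 each), with no overlap between them. *Cox8a* and *Cox7a1* followed at 67.7 ± 3.87 and 65.1 ± 9.81 CPM per kilobase, and then *Cox7a2l* at 50.7 ± 11.6, *Cox6a1* at 37.9 ± 5.53 and *Cox7a2* at 31.2 ± 7.63. Each of these 5 genes overlapped its neighbour in the order, so their ranks are not resolved. *Cox6a2* at 6.16 ± 4.89 and *Cox4i2* at 3.03 ± 0.567 CPM per kilobase closed the order and overlapped each other.

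In *Egr1* -/- mice the order was the same but for *Cox7a1*, at 97.6 ± 22.3 CPM per kilobase, and *Cox8a*, at 92.2 ± 21.3, which changed places within their spread. *Cox8b* reached 210 ± 47.2 CPM per kilobase and was above *Cox4i1*, at 113 ± 18.1, in every mouse. The place of *Cox8b* depends on the length used for *Cox4i1*: divided by its longest coding transcript of 765 bases in place of the 1550 bases of all its exons, *Cox4i1* came first with 181 CPM per kilobase in wild-type mice and 228 in mutants.

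**Figure D3:**
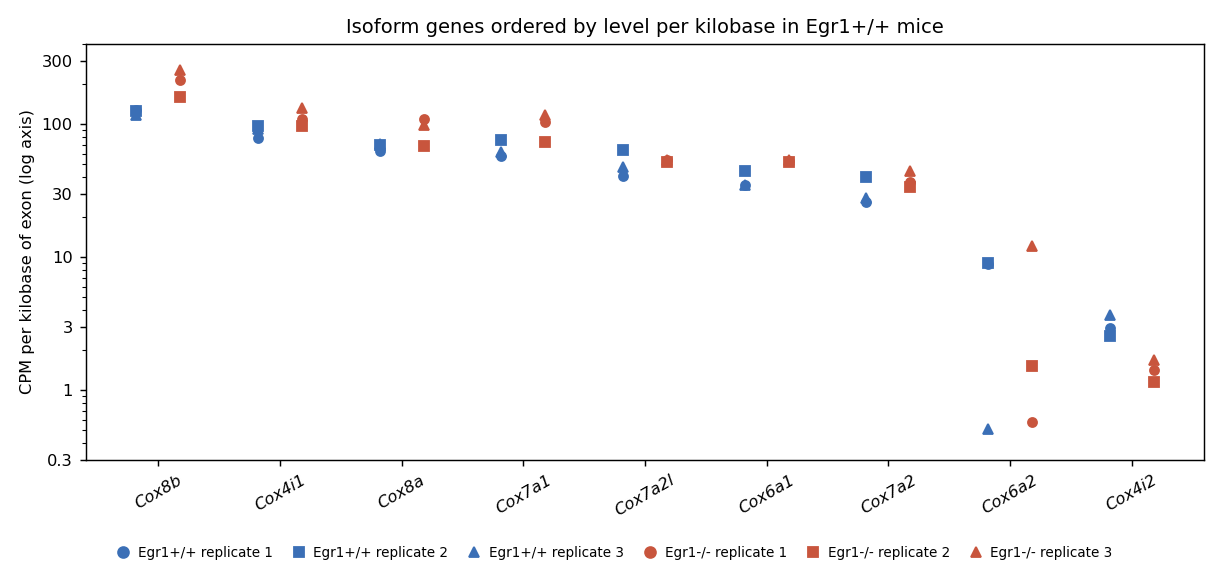
Level of the 9 genes in CPM per kilobase of exon (vertical log axis), ordered by their mean in *Egr1* +/+ mice, with 1 point per mouse and *Egr1* +/+ mice to the left of *Egr1* -/- mice for each gene. *Cox8b* lay between 117 and 129 CPM per kilobase in wild-type mice and between 160 and 255 in mutants, and *Cox4i2* was at or below 3.65 in all 6 mice.

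The remaining nuclear subunits of the enzyme gave the setting for these values. Of 10 such genes 8 were tested, all with a log2 fold change above 0, as against 50.1% of all tested genes. The median of the 8 log2 fold changes was 0.28, or 0.13 with total-count scaling. *Cox5a*, a matrix-side subunit next to subunit 4, had the largest, 0.80 ± 0.17 (SE), with an adjusted p of 0.18 by edgeR and 0.0034 by DESeq2, and it was the only gene of this list called by DESeq2. It stood at 18.1, 27.9 and 19.0 CPM in wild-type mice and at 36.9, 34.9 and 40.9 CPM in mutants, with no overlap. *Cox6b2*, at 0.49 ± 0.26 (SE), was also higher in every *Egr1* -/- mouse. DESeq2 called 2.07% of all tested genes, and 8.15% were higher in every *Egr1* -/- mouse. *Cox6b1*, which links the monomers of the enzyme, had 0.53 ± 0.20 (SE) and an adjusted p of 0.403, and *Ndufa4*, a loosely held subunit first assigned to complex I, had 0.29 ± 0.14 (SE). *Cox5b* had 0.11 ± 0.31 (SE), the smallest of the list. *Cox8c*, a testis form of subunit 8, was at 0 in all mice.

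Set against the summed counts of these other nuclear subunits in the same mouse, *Cox8b* was higher in *Egr1* -/- mice by 0.50 on the log2 scale (exact permutation p = 0.1), and *Cox7a1* by 0.33 with an overlap (exact permutation p = 0.3). *Cox4i2* relative to them differed by -1.33 (exact permutation p = 0.1) and *Cox7a2l* by -0.15 with an overlap (exact permutation p = 0.7).

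Assembly factors insert copper and haem, stabilise the mitochondrial transcripts or bring the subunits together. Of 25 such genes 23 were tested, 17 with a log2 fold change above 0 and 6 below, with a median of 0.18. None passed an adjusted p of 0.05 in edgeR or DESeq2, and 5 were higher at an unadjusted p under 0.05, with none lower. Over all tested genes, 50.1% had a log2 fold change above 0, and 5.06% were higher and 5.6% lower at that p. The 3 with the lowest p were *Coa7* at 0.48 ± 0.16 (SE), *Coa5* at 0.36 ± 0.12 and *Cox11*, which delivers copper, at 0.48 ± 0.18. Of the core subunits encoded by the mitochondrial genome, *mt-Co1* stood at 22377 to 35934 CPM in *Egr1* +/+ mice and had a log2 fold change of -0.03 ± 0.25 (SE). *mt-Co2* and *mt-Co3* had almost no counts, and identical copies of them lie in the nuclear genome, so no level is given for them.

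**Figure D4:**
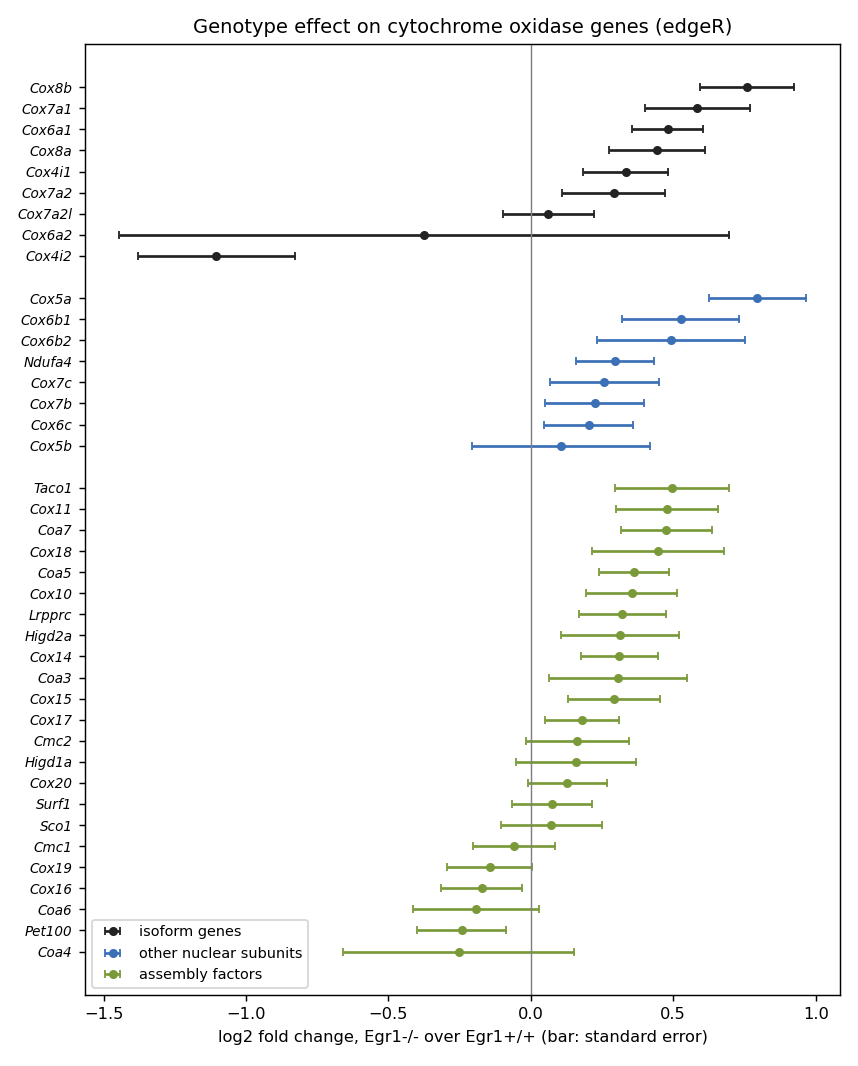
Log2 fold change of *Egr1* -/- over *Egr1* +/+ mice (horizontal axis) with its standard error in edgeR for the 9 isoform genes, 8 other nuclear subunits and 23 assembly factors tested. *Cox8b* at 0.76 and *Cox5a* at 0.80 lie to the right of the other subunits, *Cox4i2* at -1.10 lies to the left of all of them, and the bar of *Cox6a2* spans 0 widely.

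Brown and beige adipocyte markers were taken beside *Cox8b* and *Cox7a1*. Of 12 markers 11 were tested, with log2 fold changes from 0.55 (*Slc27a2*, a fatty acid transporter whose values overlapped between genotypes) to 1.91 and a median of 0.94, and 10 of them were higher at an unadjusted p under 0.05. None passed the adjusted p of 0.05 in edgeR, and DESeq2 called 10. The shares over all tested genes were 5.06% higher at that unadjusted p and 2.07% called by DESeq2. The authors had reported several of these markers, among them *Ucp1*, *Dio2*, *Cidea* and *Plin5*, as higher in the same mice, and *Cox8b* as well. These counts are therefore no independent support. *Ucp1*, which encodes the uncoupling protein of thermogenic fat, stood at 400, 316 and 305 CPM in wild-type mice and at 858, 571 and 949 CPM in mutants. Its log2 fold change was 1.22 ± 0.21 (SE). *Dio2*, which activates thyroid hormone, had a log2 fold change of 1.91 ± 0.32, *Cidea*, a lipid droplet protein, 0.97 ± 0.23, and *Plin5*, which ties droplets to mitochondria, 0.94 ± 0.16. Per 100 CPM of *Ucp1*, *Cox8b* stood at 11.6, 14.3 and 13.8 CPM in wild-type mice and at 8.97, 10.1 and 9.66 CPM in mutants. The ratio was lower in every *Egr1* -/- mouse, with a difference of -0.46 on the log2 scale (exact permutation p = 0.1). The same ratio of *Cox7a1* was 7.67, 12.9 and 10.8 in wild-type mice and 6.46, 6.84 and 6.56 in mutants, a difference of -0.63 (exact permutation p = 0.1).

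Muscle markers took another order over the mice than *Cox8b* and *Cox7a1*. The 3 mice with most muscle RNA included both the second lowest and the highest value of *Cox8b*, and *Cox8b* varied 2.18-fold and *Cox7a1* 2.03-fold over the 6 mice, as against 33.3-fold for the muscle markers. With the muscle score of each mouse as a covariate, the same 5 isoform genes had an unadjusted p under 0.05 as without it.

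Mural cell markers were taken beside *Cox4i2*, which pericytes are known to express. The 10 markers summed to 560 to 755 CPM in wild-type mice and to 460 to 666 CPM in mutants, with a median log2 fold change of -0.17, 8 of them below 0. *Rgs5*, the most abundant, had -0.27 ± 0.21 (SE), *Kcnj8*, a potassium channel subunit of pericytes, -0.52 ± 0.19, and *Cspg4*, which encodes NG2, went the other way at 0.65 ± 0.17. *Cspg4* was higher in every *Egr1* -/- mouse, as 8.15% of all tested genes were. It was the only one of the 10 that DESeq2 called, at an adjusted p of 0.0297. None of the 10 was lower in every *Egr1* -/- mouse. Relative to the summed mural markers, *Cox4i2* was lower in every *Egr1* -/- mouse, with a difference of -0.88 on the log2 scale (exact permutation p = 0.1). Genes that respond to low oxygen, a condition known to raise *Cox4i2* in other tissues, had a median log2 fold change of 0.08 over 9 tested of 10, with 6 above 0 and 3 below. *Pfkfb3*, a regulator of glycolysis, had the highest at 0.47 ± 0.14 (SE), and *Egln3*, which encodes an oxygen-dependent prolyl hydroxylase, the lowest at -0.47 ± 0.27. The 6 endothelial markers had a median of -0.01, with 1, the angiopoietin receptor gene *Tek* at -0.44 ± 0.16, lower in every *Egr1* -/- mouse. The 7 immune markers had a median of 0.08, but the macrophage genes *Adgre1* at -0.74 ± 0.18 and *Cd68* at -0.45 ± 0.18 were lower in every *Egr1* -/- mouse as *Cox4i2* was, and the B cell gene *Cd79a* stood at 0.93 ± 0.31 with an overlap. DESeq2 called *Adgre1* at an adjusted p of 0.0143 and no other of these endothelial and immune genes. It called 2.07% of all tested genes, and 8.1% of all tested genes were lower in every *Egr1* -/- mouse. The 5 mammary epithelial markers summed to no more than 9.99 CPM in any mouse. The part of these cell types in the isoform values was not tested beyond these ratios.

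**Figure D5:**
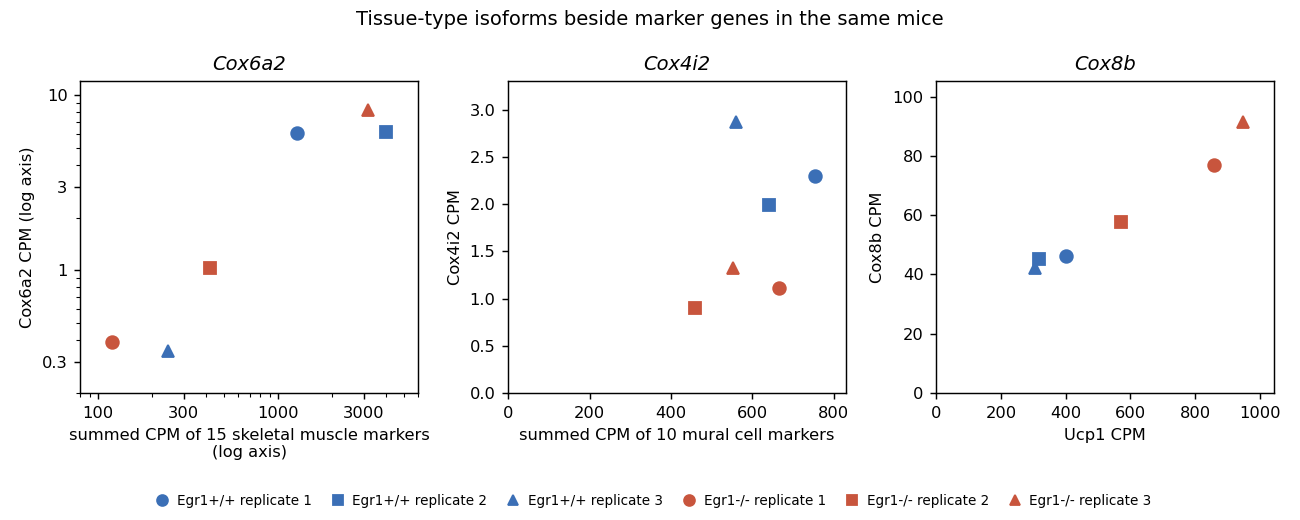
Level of *Cox6a2*, *Cox4i2* and *Cox8b* in CPM (vertical axes) against the summed CPM of 15 skeletal muscle markers, the summed CPM of 10 mural cell markers and the CPM of *Ucp1* (horizontal axes) in the same mice, with both axes of the *Cox6a2* panel on a log scale. The 3 mice with muscle markers at or above 1274 CPM were those with *Cox6a2* at or above 6.05 CPM, while *Cox4i2* was at or below 1.33 CPM in *Egr1* -/- mice, whose mural markers summed to 460 to 666 CPM as against 560 to 755 CPM in *Egr1* +/+ mice, and *Cox8b* and *Ucp1* were both highest in the *Egr1* -/- mice.

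The genes whose profile over the 6 mice came closest to that of each restricted isoform were sought among 14257 tested genes with a mean of at least 1 CPM, by the root mean square difference of mean-centred log2 CPM. The genes nearest to *Cox8b* included *Rilp* and *Lrg1*, both at 0.08. *Cox7a1* came closest to *Ndufa8*, a subunit of complex I, at 0.06, then to *Macrod1* at 0.06 and *Btbd6* at 0.08. *Cox8b* and *Cox7a1* lay at 0.16 from each other, with *Cox7a1* at rank 69 among the genes nearest to *Cox8b* and *Cox8b* at rank 80 among those nearest to *Cox7a1*.

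*Cox6a2* came closest to *Hrc*, *Trdn* and *Sypl2*, which encode proteins of the sarcoplasmic reticulum and its junctions in striated muscle, at 0.33, 0.39 and 0.46. The muscle creatine kinase gene *Ckm* was at rank 23. *Cox4i2* came closest to *Tnfrsf11b*, which encodes osteoprotegerin, at 0.12, to *9130008F23Rik* at 0.13 and to *Cd300lb*, a myeloid receptor, at 0.16. These are descriptions over 6 mice, and the genes compared were read from the same 6 libraries. The 3 genes next to *Cox4i2* had low counts as it did, at 0.710 to 2.48 CPM.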

How the data were processed

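The authors aligned strand-specific reads to GRCm38 (mm10 in the submitters' processing notes) with TopHat2 and Bowtie2, counted them on GENCODE M8 genes with featureCounts and deposited raw, unnormalized counts per gene for each mouse. The strand and multimapping settings of featureCounts are not given in the sources used here, so reads of overlapping or near-identical genes may be divided. Of 47069 identifiers 46488 were named through GENCODE M21, without their version.

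Counts of the 6 mice, grouped by the genotype of their labels, were fitted in R 4.3.3 with edgeR 4.0.16 (filterByExpr, TMM normalization, quasi-likelihood test, no covariate), with Benjamini-Hochberg adjustment over 17667 genes at a threshold of 0.05. The test was checked on simulated data. CPM used TMM library sizes. Per-mouse isoform ratios used 0.5 added counts and an exact two-sided permutation test (scipy 1.17.1). Level per length used the union of a gene's exons. Copies were sought with blastn 2.17.0, at 95% identity over at least 100 bases. Depth sets the precision: the lowest isoform counts, 13 to 15 reads of *Cox6a2*, carry the largest counting error.

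The alternatives were DESeq2 1.42.0, limma-voom (limma 3.58.1), RLE, upper-quartile and total-count normalization, leaving out the mitochondrial genome, no filter or one of 1 CPM in 3 mice, a replicate block, a skeletal muscle covariate and leaving out each mouse. Replicate numbers come from the labels and were not treated as pairs. No libraries were duplicates. The 9 isoform genes and all gene lists were chosen with earlier results of these data known. Genes named were the isoforms, *Egr1*, the 3 with the lowest p and, for cell types and states, the 3 most abundant of each list, the 3 nearest profiles and copies with at least 10 counts. Only some of these are described, and 1 of the nearest profiles is not reported here. The ratios of isoforms to markers were added after the values had been seen.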

Additional observations from a re-analysis of the deposited data

How the results depend on the processing

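The 5 isoform ratios kept their direction under each of the 10 alternatives, and so did the log2 fold changes of *Cox4i1*, *Cox4i2*, *Cox6a1*, *Cox7a1*, *Cox7a2*, *Cox8a* and *Cox8b* under each of 16. *Cox8b* passed an adjusted p of 0.05 in DESeq2 (0.0025) and with no filter on low counts in edgeR (0.000136), and *Cox7a1* with no filter (0.0091), where 38261 genes were tested. *Cox6a2* turned positive without *Egr1* +/+ replicate 1 (0.0002) or 2 (0.02) and without *Egr1* -/- replicate 1 (0.16) or 2 (0.05), and *Cox7a2l* turned negative with total-count scaling (-0.078) and without *Egr1* +/+ replicate 1 (-0.087). Total-count scaling moved the median of all genes to -0.15, lowered the assembly factor median from 0.18 to 0.034 and left 1 isoform gene higher at an unadjusted p under 0.05 in place of 4, which is *Cox8b*. Leaving out 1 mouse gave 3 to 6 isoform genes higher at an unadjusted p under 0.05 and 1 or 2 lower. The ranges over left-out mice were 0.60 to 0.92 for *Cox8b*, 0.44 to 0.76 for *Cox7a1*, 0.40 to 0.61 for *Cox6a1*, 0.20 (without *Egr1* -/- replicate 3) to 0.43 for *Cox4i1*, 0.30 to 0.62 for *Cox8a*, 0.16 to 0.51 (without *Egr1* +/+ replicates 1 and 2 in turn) for *Cox7a2*, -0.087 to 0.257 for *Cox7a2l* and -2.54 to 0.16 for *Cox6a2*, and for the ratios -1.60 to -1.30 (*Cox4i2*), -2.44 to -0.18 (*Cox6a2*), 0.18 to 0.37 (*Cox7a1*), 0.22 to 0.43 (*Cox8b*) and -0.29 to -0.12 (*Cox7a2l*). Without *Egr1* -/- replicate 3, 5 of the 9 genes kept their place in the order per kilobase in *Egr1* -/- mice. The number of genes called among all genes was the least stable value: 3 as reported, 366 with DESeq2, 0 with upper-quartile normalization, 79 with total-count scaling, 552 with no filter on low counts, 0 with a filter of 1 CPM, 1 with limma-voom, 6 with the skeletal muscle covariate, and 0 to 59 on leaving out a mouse, with 59 without *Egr1* -/- replicate 1. The cause of these shifts was not tested. When the replicate number entered the fit as a block, 0 genes passed in edgeR (1909 at an unadjusted p under 0.05), the same 5 isoform genes had an unadjusted p under 0.05, and the paired permutation of the *Cox4i2* ratio of -1.42 gave an exact p of 0.25, the smallest 3 pairs allow. The deviations of same-numbered mice from their genotype means correlated at -0.0888, 0.106 and -0.126, and 2 of the 6 mice correlated best with their own number. These values gave no sign that the numbers pair the mice. They cannot exclude it, as the sources used here do not say which numbers the littermates carry. With 3 mice a genotype, a permutation test cannot pass 0.05, and at 0.904 to 2.88 CPM *Cox4i2* rests on 28 to 124 reads a mouse.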
